A study of Mus musculus with 115 samples.

Results

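Genes of triglyceride storage and release were followed in liver and inguinal adipose tissue of mice whose gonad type does not depend on whether they are XX or XY. The set comprised 10 genes, taken by their array symbols: Lpl, Cd36, Fabp4, Dgat2, Cidec, Pnpla2, Pnpla3, G0s2, Lipe and Mgll. A probe carried the symbol of 9 of them, with 12 probes in all out of 25697 probes and 18120 symbols on the array. Pnpla3 is not analysed here. Lipe had 2 probes, Mgll 3 and the other genes 1 each. After the filter on dim probes all 9 genes were tested in adipose and 6 in liver.

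The mice were of a C57BL/6J background, and in all of them the Y chromosome, where present, lacks the testis-determining gene Sry (written Y-). XX and XY- mice carry no Sry and form ovaries. XXSry and XY-Sry mice carry Sry as a transgene and form testes, so the transgene stands for gonad type in every comparison of gonads. All animals, controls included, were gonadectomised at 75 days of age and at once given a Silastic capsule. The capsule was blank (B), held testosterone (T, 5 mM) or held estradiol (E, 50 µg), and tissue was taken 3 weeks later. The controls thus lack gonadal hormone in adulthood, and a gonad contrast in these mice compares animals whose gonads had been removed. The 4 genotypes and 3 treatments made 12 groups in each tissue. There were 60 liver arrays, 5 to a group, and 55 adipose arrays: 3 for XX B, 4 for XY-Sry B, for XXSry E and for XX T, and 5 for each other group. The labels do not say which arrays come from one animal, so p-values measure the spread between arrays.

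Fat is stored as triglyceride in lipid droplets. Lipoprotein lipase frees fatty acids from circulating lipoproteins at the vessel wall, carriers bring them into the cell, and acyltransferases join them to glycerol. In lipolysis, a cascade of lipases removes the fatty acids again, first from triglyceride, then from diglyceride and last from monoglyceride. Adipocytes run both directions at high capacity, whereas hepatocytes store triglyceride for a short time and export it in lipoproteins.

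The labels were checked first. The median raw signal of an array lay between 124 and 159 intensity units in liver and between 130 and 230 in adipose, and 31.8% to 41.0% of probes were detected in liver against 40.3% to 49.0% in adipose. Hepatocyte transcripts were abundant on every liver array, and 4 of 7 adipocyte markers (Adipoq, Plin1, Retn and Aqp7) were detected on 0 of 60 liver arrays. The others were detected there: Pparg on 60, Lep on 21 and Cfd on 9 arrays. All 7 adipocyte markers were tested in adipose, where 6 were detected on every array and Retn on 54 of 55. The liver array XY-Sry T replicate 5 carried the Y-linked transcript Eif2s3y at 4.53 (log2), the level of XX arrays. The liver array XY- E replicate 5 carried Hsd3b5, a male-type liver transcript, at 12.26, inside the range of the testosterone arrays (11.15 to 12.95). A second estradiol array, XXSry E replicate 5, also lay in that range, at 11.19. The other 4 arrays of its group ran from 8.47 to 10.25, and the remaining estradiol arrays from 4.50 to 7.72. Without XY-Sry T replicate 5 and XY- E replicate 5, 3 genes were called for testosterone, 2 for estradiol and 3 for testosterone against estradiol in liver, against 3, 1 and 3 with them, and these counts were the same with XXSry E replicate 5 left out too. In adipose, Eif2s3y was at 6.41 on XXSry B replicate 3, 6.51 on XXSry B replicate 4 and 5.83 on XX T replicate 2. Estradiol arrays of XX and XXSry mice ran from 4.51 to 5.24, and blank arrays of XY- and XY-Sry mice from 8.19 to 9.63. All of these arrays were kept, and the source of this signal was not tested. The treatment fields of the adipose array XX E replicate 1 disagree. Its level of the transcript Greb1, 9.22, lay in the range of estradiol arrays of XX and XXSry mice (7.56 to 9.30). Testosterone arrays of these mice ran from 4.54 to 5.94. The array was kept as estradiol, and without it 4 genes were called for estradiol, as with it. Adipose samples also held other tissue to varying degrees: the summed level of 8 skeletal muscle markers ran from 5293 to 198341 intensity units over the arrays, and that of 8 lymph node markers from 277 to 45796. The sum of 7 hepatocyte markers ran from 231 to 113257, the highest on a testosterone array, with medians of 656 to 720 over the treatments.

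Levels are log2 intensities after background correction and quantile normalisation within each tissue. They are comparable between arrays of a tissue, not between probes or tissues. A difference is called when limma's adjusted p, corrected by Benjamini-Hochberg over all tested probes of that comparison, is under 0.05. Standard errors (SE) are those of the same fit over 12 group means, which weights groups equally.

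Estradiol lowered the lipases of fat breakdown in inguinal adipose. Of 9 genes, 4 were called lower and none higher: Pnpla2, Lipe and Mgll, which encode the 3 lipases of the lipolytic cascade, and Dgat2, which completes triglyceride synthesis. Over all 14636 probes, 20.5% were called for estradiol, 10.1% lower and 10.4% higher. The 9 differences had a median of -0.37, and the median of all probes was -0.02. All 9 lay below 0, but those of Cidec, G0s2 and Lpl were -0.07 or closer to 0 and were not called.

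Pnpla2 encodes adipose triglyceride lipase, the enzyme that opens triglyceride breakdown. It ran from 14.15 to 15.03 with a median of 14.78 on 17 blank arrays, from 14.17 to 14.91 (median 14.51) on 19 testosterone arrays, and from 13.89 to 14.81 (median 14.32) on 19 estradiol arrays. The estradiol arrays were shifted down but overlapped the controls. The difference was -0.37 (SE 0.07), with an adjusted p of 8.91e-05 in limma, and it was negative in 4 of 4 genotypes, from -0.26 in XY- and XXSry to -0.51 in XX.

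Lipe encodes hormone-sensitive lipase, which acts chiefly on diglyceride. Blank arrays ran from 9.67 to 11.21 (median 10.64) and estradiol arrays from 9.05 to 10.79 (median 9.97). The lowest array of all was an XX estradiol sample, and the highest was an XXSry blank sample. Lipe was 1.37-fold lower with estradiol (difference -0.46, SE 0.13, limma adjusted p = 0.00727), with the same sign in 4 of 4 genotypes. Its second probe gave -0.40 and was not called (limma adjusted p = 0.116).

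Mgll encodes monoglyceride lipase, which releases the last fatty acid and also breaks down the endocannabinoid 2-arachidonoylglycerol. It ran from 11.90 to 13.30 (median 12.93) on blank arrays and from 11.27 to 12.85 (median 12.36) on estradiol arrays. The fall was 1.39-fold (difference -0.47, SE 0.11, limma adjusted p = 0.001). It ranged from -0.18 in XXSry to -1.10 in XX mice, where the 3 blank arrays lay above all 5 estradiol arrays. The main probe in adipose, ILMN_2857957, is not the one in liver, ILMN_2700408. The probes of this gene disagree: the liver probe gave -0.33 (adjusted p = 0.019), and the third, ILMN_2592925, gave 0.15 and was not called (adjusted p = 0.552).

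Dgat2 encodes a diacylglycerol acyltransferase that adds the last fatty acid to triglyceride. The 17 blank arrays were tight, from 14.00 to 14.58 (median 14.32), whereas estradiol arrays spread from 13.08 to 14.60 (median 14.00). The difference was -0.41 (SE 0.11, limma adjusted p = 0.00512). It was negative in 3 of 4 genotypes, with -0.69 in XX, -0.49 in XY-Sry and -0.46 in XY-, while XXSry showed 0.02. The interaction of estradiol with gonad was not called for any gene of the set in adipose.

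The other 5 genes were not called with estradiol. Cd36, a membrane carrier of long-chain fatty acids, had the largest difference of the set at -0.49 (SE 0.21, limma adjusted p = 0.0913): blank arrays ran from 7.81 to 10.29 and estradiol arrays from 7.60 to 9.66. Fabp4, the cytosolic fatty acid carrier of adipocytes, differed by -0.30 (SE 0.27, adjusted p = 0.502), and its blank arrays alone spanned 8.27 to 12.13. Cidec, a droplet protein that helps droplets fuse, differed by -0.07 (SE 0.16, adjusted p = 0.827). G0s2, a protein inhibitor of the Pnpla2 lipase, differed by -0.04 (SE 0.17, adjusted p = 0.913), so the 95% interval of its difference ran from -0.39 to 0.31. Lpl, the lipoprotein lipase, differed by -0.01 (SE 0.06, adjusted p = 0.966, interval -0.13 to 0.11). Its raw intensity of 22559 to 36685 placed it at percentile 99.96 of the array, where 41066 was the brightest value of any probe on these arrays. Pnpla2 lay at percentile 99.88 and Dgat2 at 99.73. Whether the upper end of the scanner's range limited their differences was not tested.

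**Figure D1:**
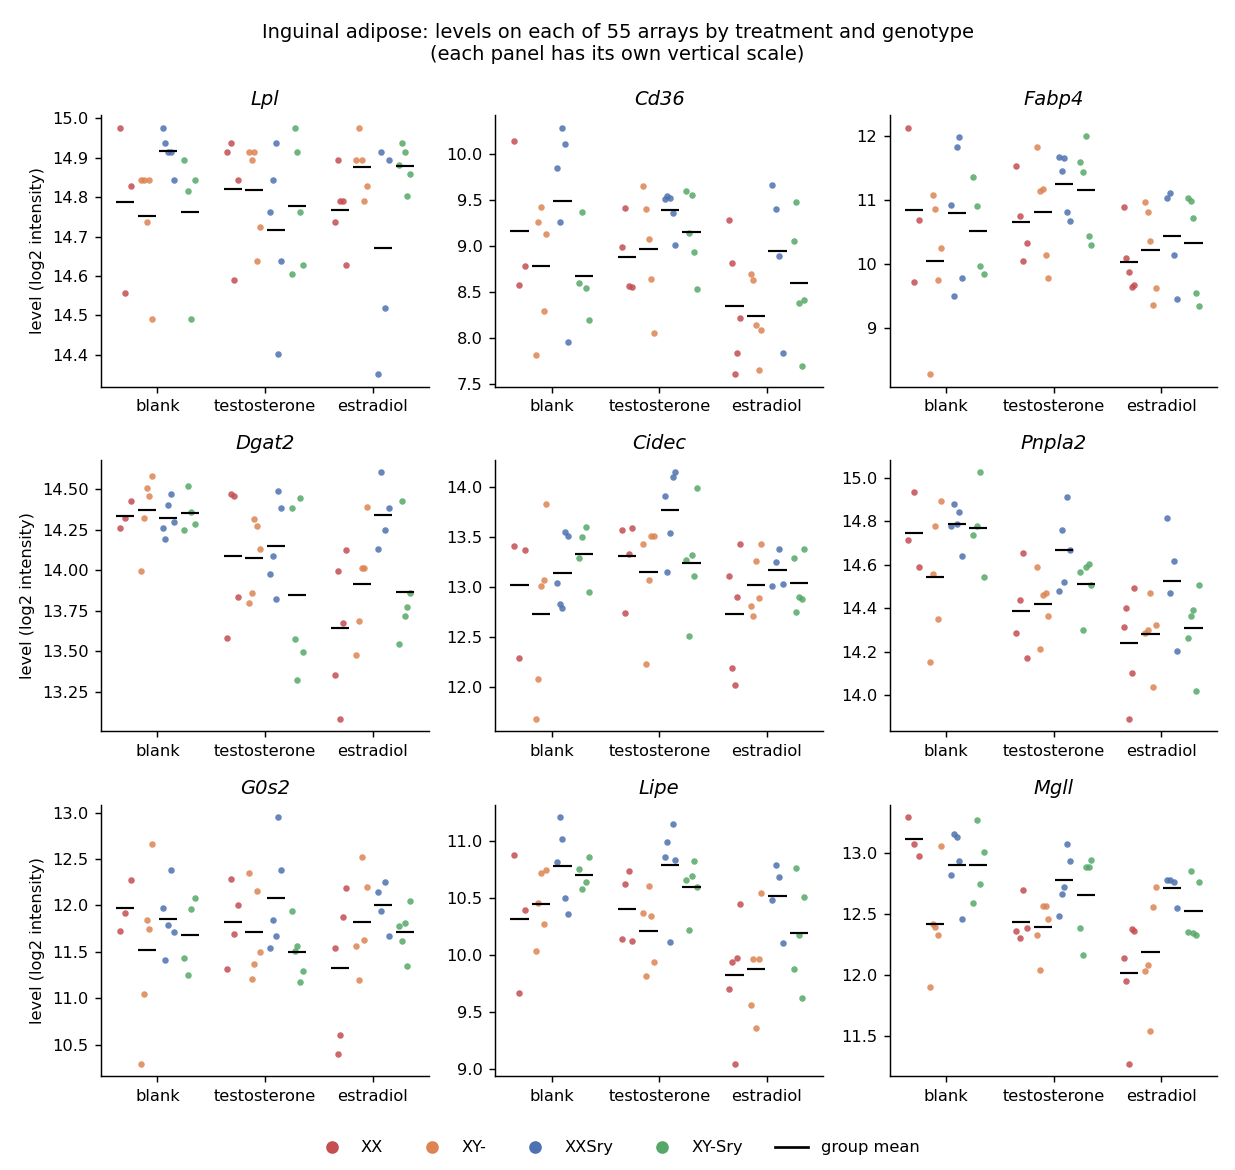
Log2 level of each of the 9 genes in inguinal adipose on every array (points), by treatment on the horizontal axis and genotype by colour, with group means as black bars. Pnpla2, Lipe, Mgll and Dgat2 sit lower with estradiol with overlapping ranges, and Lpl keeps to 14.35 to 14.98 throughout.

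Markers of adipocytes moved with these falls. With estradiol, 4 of 7 adipocyte markers were called lower (Aqp7, Retn, Lep and Plin1) and none higher, with a median difference of -0.40. Their summed level ran from 40564 to 70928 intensity units with estradiol and from 47726 to 78665 with blank capsules. All 5 macrophage markers were higher with estradiol (median difference 1.13, summed level 3735 to 11103 against 1973 to 6682), as were all 4 stromal markers, and 3 of 4 endothelial markers were lower. In whole tissue, fewer adipocytes and less RNA of a gene per adipocyte cannot be told apart. With the mean adipocyte marker level as a covariate, an alternative chosen after seeing the data, Pnpla2 alone stayed called, at -0.19 (limma adjusted p = 0.04). Mgll was then at -0.17 (adjusted p = 0.254), Dgat2 at -0.15 (0.36) and Lipe at -0.07 (0.736). The adipocyte markers Plin1, Aqp7 and Pparg also belong to the wider lipid list given below. The covariate thus holds genes of the same pathway and may take out part of the pathway's own difference. No muscle, lymph node or hepatocyte marker was called with estradiol and 1 epithelial marker was called higher, but the median muscle sum was 34652 intensity units with estradiol against 124011 with blank capsules, and the median lymph node sum 17734 against 7134. With their levels as covariates the 4 calls stayed and Cd36 was called too, at -0.54 (adjusted p = 0.0247).

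Slide also changed which genes passed. Blank and estradiol arrays met on 2 of 8 adipose slides, and there the difference was negative on both slides for every gene except Lpl. With slide as a fixed block, Pnpla2 (-0.39, limma adjusted p = 0.00122) and Mgll (-0.44, 0.0101) stayed called. Lipe (-0.37, 0.099) and Dgat2 (-0.28, 0.096) did not, while Fabp4 (-0.69, 0.000831), Cidec (-0.42, 0.0172) and Cd36 (-0.56, 0.0242) were called. Pnpla2 was thus the gene called under each of the models shown for estradiol in adipose.

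**Figure D2:**
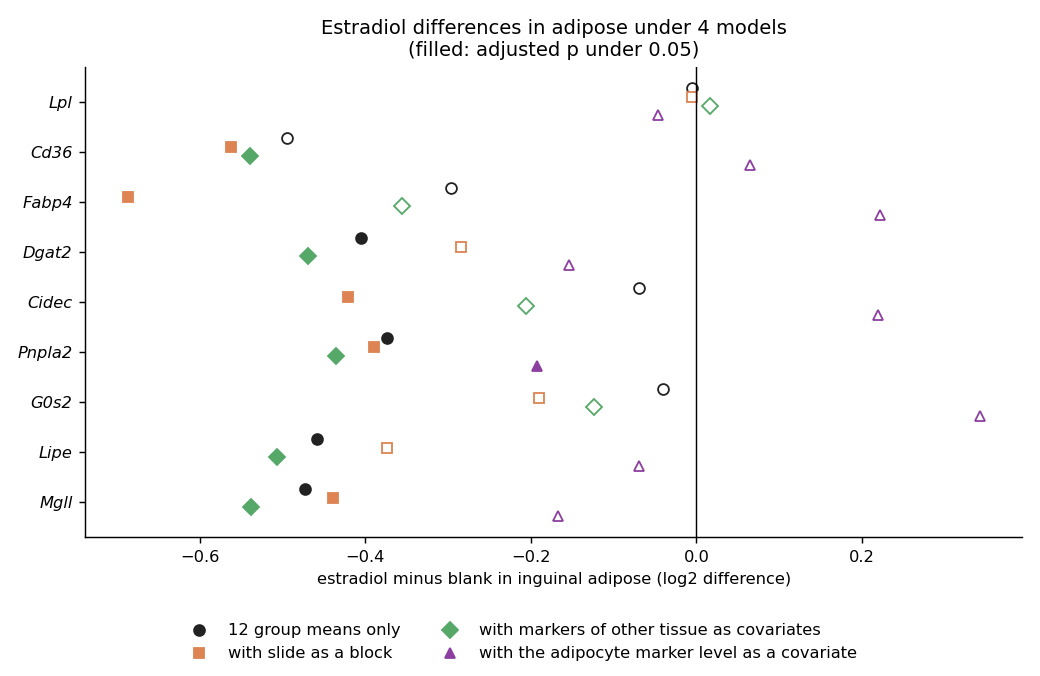
Estradiol minus blank (log2 difference, horizontal axis) for each of 9 genes in inguinal adipose under 4 models: group means alone, slide as a block, markers of other tissue as covariates, and the adipocyte marker level as a covariate. Filled symbols have a limma adjusted p under 0.05. Pnpla2 is filled in all 4, and with the adipocyte marker level the values of Cd36, Fabp4, Cidec and G0s2 lie above 0.

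Promoters are shown for the 3 lipase genes that fell together in adipose and for G0s2, the gene that fell with estradiol in liver. Each is the 250 bases before the transcription start that lies farthest upstream in the RefSeq table (GRCm38.p6), written on the strand of the gene. Capitals mark GC boxes (GGGCGG on either strand). The table matched 7 of the 10 genes by symbol; Lpl, Fabp4 and Dgat2 were not matched. The stretches are Pnpla2, chr7:141454938-141455187 on the plus strand; Mgll, chr6:88724162-88724411 on the plus strand; Lipe, chr7:25395988-25396237 on the minus strand; and G0s2, chr1:193273189-193273438 on the minus strand.
Pnpla2: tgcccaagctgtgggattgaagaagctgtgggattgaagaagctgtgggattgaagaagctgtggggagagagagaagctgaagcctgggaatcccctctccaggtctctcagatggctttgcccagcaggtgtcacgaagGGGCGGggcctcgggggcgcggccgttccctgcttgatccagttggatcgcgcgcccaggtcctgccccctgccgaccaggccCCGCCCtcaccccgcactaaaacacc
Mgll: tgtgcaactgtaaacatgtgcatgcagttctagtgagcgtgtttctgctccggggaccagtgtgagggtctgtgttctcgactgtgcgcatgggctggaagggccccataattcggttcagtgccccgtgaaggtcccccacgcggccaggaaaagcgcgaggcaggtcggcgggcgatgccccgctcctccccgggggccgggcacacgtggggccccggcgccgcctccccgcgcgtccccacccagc
Lipe: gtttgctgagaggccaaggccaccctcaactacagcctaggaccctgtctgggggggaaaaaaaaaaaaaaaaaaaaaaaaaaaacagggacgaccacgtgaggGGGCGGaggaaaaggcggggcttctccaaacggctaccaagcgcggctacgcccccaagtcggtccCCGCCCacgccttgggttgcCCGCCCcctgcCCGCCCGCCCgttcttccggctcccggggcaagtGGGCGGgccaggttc
G0s2: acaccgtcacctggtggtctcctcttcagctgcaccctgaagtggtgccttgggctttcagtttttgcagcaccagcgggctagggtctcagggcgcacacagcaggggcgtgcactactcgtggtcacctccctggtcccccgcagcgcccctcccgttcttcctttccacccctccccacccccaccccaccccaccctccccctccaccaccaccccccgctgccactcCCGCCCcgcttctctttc

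Both strands of these stretches were searched for 7 motifs. GC boxes were found in Pnpla2, Lipe and G0s2 but not in this stretch of Mgll, and 32.7% of 32851 promoters of the same length hold one. No match was found in the 4 stretches for the estrogen receptor palindrome (in 0.0639% of promoters), the PPAR direct repeat (0.0335%), the half-site that overlaps it (AGGTCA, 14%), the androgen receptor palindrome (0.387%), the CCAAT box (CCAAT, 33.8%) or the TATA box (TATAAA, 12.4%). These letters are only absent from these windows.

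Mice with Sry had more Lipe and Mgll in adipose than mice without it, over all treatments. Of 9 genes 2 were called, both higher with Sry, while 7.34% of all probes were called, 2.63% higher and 4.71% lower. The median difference of the set was 0.29, against 0.03 over all probes. Lipe ran from 9.62 to 11.21 (median 10.67) on 28 arrays with Sry and from 9.05 to 10.88 (median 10.14) on 27 without. The difference was 0.42 (SE 0.10, limma adjusted p = 0.00524) and positive in 6 of 6 combinations of treatment and sex chromosomes. Its second probe was called as well, at 0.50 (adjusted p = 0.0223). Mgll ran from 12.16 to 13.27 (median 12.77) with Sry and from 11.27 to 13.30 (median 12.37) without, a difference of 0.32 (SE 0.09, adjusted p = 0.0137) with that sign in 5 of 6 combinations. Its other probes gave 0.18 and 0.33 and were not called (adjusted p = 0.247 and 0.105). Pnpla2 (0.16, adjusted p = 0.0905) and Cidec (0.29, adjusted p = 0.215) were not called, although both were positive in 6 of 6 combinations. The other 5 genes lay between -0.02 and 0.31 without a call.

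Tissue make-up moved with gonad type too. Of 9 epithelial markers tested, 8 were called lower with Sry (median difference -3.20). Their summed level ran from 352 to 5955 intensity units with Sry and from 4038 to 24372 without. Of 7 adipocyte markers, 2 (Plin1 and Lep) were called higher with Sry, with sums of 53817 to 75038 against 40564 to 78665. With the adipocyte marker level as a covariate Lipe was at 0.13 (limma adjusted p = 0.467) and Mgll at 0.09 (0.576). With other-tissue markers as covariates Lipe was at 0.15 (0.781) and Mgll at 0.47 (0.223), so neither call was kept. These covariates include the epithelial marker level, whose sums barely overlapped between gonad types. That fit could hardly separate gonad type from epithelial content, so a call lost there decides nothing. Median centring in place of quantile normalisation left Mgll at 0.37 (adjusted p = 0.0975), and Pnpla2 at 0.27 was then called (adjusted p = 0.00561). On the 8 slides that held both gonad types, Lipe was higher with Sry on all 8.

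Testosterone changed none of the 9 genes in adipose by limma's adjusted p; 3 had an unadjusted p under 0.05, and 4.75% of all probes were called, 2.16% higher and 2.59% lower. These 3 were Dgat2 (-0.31, SE 0.11, adjusted p = 0.0973), Pnpla2 (-0.22, SE 0.07, 0.07) and Mgll (-0.27, SE 0.11, 0.155), each negative in 4 of 4 genotypes. Fabp4 (0.42, SE 0.27, 0.422) and Cidec (0.31, SE 0.16, 0.304) were not called either, and the other 4 lay between -0.06 and 0.07. With other-tissue markers as covariates Dgat2 (-0.38, adjusted p = 0.0261), Pnpla2 (-0.28, 0.00646) and Mgll (-0.35, 0.0323) were called lower. Without background correction Pnpla2 was called (-0.21, 0.048). Leaving out XY- B replicate 1 or XX T replicate 3 also gave a call for Pnpla2, with an adjusted p of 0.0315 at the lowest, and leaving out XY-Sry T replicate 4 gave one for Dgat2 (0.0479). No adipocyte marker was called with testosterone, whereas 2 of 4 endothelial markers, 1 of 8 lymph node markers and 1 of 5 brown or beige adipocyte markers (Cidea) were lower and 1 of 5 macrophage markers (Mrc1) was higher, and the median lymph node sum was 929 intensity units against 7134 with blank capsules.

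Set directly against estradiol, testosterone arrays held more Cd36 and Lipe. Of 9 genes 2 were called, a share near the 17.3% of all probes called, and both were higher with testosterone. Of all probes 7.76% were higher and 9.57% lower. Cd36 ran from 8.05 to 9.66 (median 9.14) with testosterone and from 7.60 to 9.66 (median 8.41) with estradiol. The difference was 0.56 (SE 0.20, limma adjusted p = 0.0467). That call sits at the threshold and was lost in 24 of 55 fits that left out 1 array. Lipe differed by 0.40 (SE 0.12, adjusted p = 0.0191) and kept its call in all 55. Its second probe gave 0.27 and was not called (limma adjusted p = 0.298), with that sign in only 2 of 4 genotypes. Fabp4 (0.72, SE 0.26, adjusted p = 0.0521) lay just past the threshold, and with slide as a fixed block it was called (0.81, adjusted p = 3.4e-05), as was Cidec (0.61, 0.000171, from 0.38 and 0.0874 without the block). By their main probes, Cd36, Fabp4, Cidec, Lipe and Pnpla2 were each higher with testosterone in 4 of 4 genotypes. This contrast shares its estradiol arrays with the comparison of estradiol and blank. Adipocyte markers moved the same way, with 4 of 7 higher and none lower with testosterone, and with their level as a covariate Cd36 was at 0.16 (0.608) and Lipe at 0.12 (0.476).

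Sex chromosome complement changed none of the 9 genes in adipose by limma's adjusted p. No gene had an unadjusted p under 0.05, and 0.137% of all probes were called, 0.0888% higher and 0.0478% lower in XX. Differences of the main probes (XX minus XY groups) ran from -0.03 for Lpl to 0.30 for Cd36. No gene was called in any of the 5 interactions, where 1 value of a main probe, that of Lpl for estradiol by sex chromosomes, had an unadjusted p under 0.05. Of all probes 0.813% were called for estradiol by gonad (0.253% higher, 0.56% lower), 0.0137% for testosterone by gonad, and 0% for the other 3.

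By group means, XX E was the lowest for Pnpla2 (14.24 ± 0.24 SD, n = 5), Lipe (9.83 ± 0.51, n = 5), Mgll (12.02 ± 0.45, n = 5) and Dgat2 (13.65 ± 0.44, n = 5), with XY- E next lowest for Pnpla2 (14.28 ± 0.16, n = 5), Lipe (9.88 ± 0.45, n = 5) and Mgll (12.19 ± 0.47, n = 5). These neighbours differ by less than 1 SD. The highest group differed by gene: XXSry B for Pnpla2 (14.79 ± 0.09, n = 5), XXSry T for Lipe (10.79 ± 0.40, n = 5), XX B for Mgll (13.12 ± 0.16, n = 3) and XY- B for Dgat2 (14.37 ± 0.23, n = 5). Of all tested probes, the 12 group means of Pnpla2 were most like those of Cpt2, which returns fatty acids to their coenzyme A form inside mitochondria (Pearson r = 0.967 over 12 groups). For Mgll the nearest was Aco1, a cytosolic aconitase (r = 0.964), for Cidec it was Scp2, a lipid transfer protein (r = 0.976), for Cd36 Spnb2 (r = 0.974), for Fabp4 Calca (r = 0.965), for Lipe Bag4 (r = 0.949), for Dgat2 Gnb4 (r = 0.922), for Lpl Sec24c (r = 0.843) and for G0s2 Stra13 (r = 0.833). These r describe 12 means that share arrays and scaling and were picked as the highest among all tested probes.

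The wider lipid list, 61 genes of the same pathway with a probe each, was called lower more often than higher with estradiol in adipose. Of 52 tested genes 20 were called, 16 lower and 4 higher, with a median of -0.22, against 20.5% of all probes called, 10.1% lower and 10.4% higher, with a median of -0.02. The largest differences were Cidea, a droplet protein of thermogenic fat (-2.87, SE 0.33, limma adjusted p = 3.32e-09), Fabp5 (-1.75, SE 0.21, 1.4e-08) and Gpam, the mitochondrial enzyme that opens glycerolipid synthesis, which rose (1.30, SE 0.20, 2.01e-06). The Fabp5 probe was detected on 24 of 55 arrays, so its size is that of a dim probe. All 4 tested genes of lipolysis and glycerol release were called. Abhd5, the activator of Pnpla2, fell by 0.59 on the log2 scale. Aqp7, a glycerol channel and one of the adipocyte markers above, fell by 0.72. The lipase Ces1d (Ces3 on the array) fell by 0.33, whereas lysosomal Lipa (Lip1) rose by 0.44. These 4 were named after their values were seen, as was Gpihbp1, the endothelial anchor of lipoprotein lipase and the only called gene of 7 tested in lipoprotein lipolysis (-1.22, limma adjusted p = 1.13e-08), beside a flat Lpl. In triglyceride synthesis 4 of 12 were lower and 1 higher, and among droplet proteins 3 of 11 were lower and 1 higher. Markers of brown or beige adipocytes, of which Cidea is one, were lower for 4 of 5 tested, and Gpihbp1 fell alongside 3 of 4 endothelial markers. The part of cell make-up in these falls was not tested.

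In the other adipose comparisons fewer list genes passed. With Sry 5 of 52 were higher and 1 lower, against 7.34% of all probes called (2.63% higher, 4.71% lower). The largest were Cebpa (0.69, limma adjusted p = 0.0368), Acsl3 (-0.60, 2.29e-05) and Mogat1 (0.56, 0.0062). With testosterone 3 of 52 were lower, a share near the 4.75% of all probes called: Fabp5 (-1.32, 4.41e-05), Cidea (-1.12, 0.0336) and Angptl8 (EG624219 on the array; -1.12, 0.00859), an inhibitor of lipoprotein lipase made in fed fat and liver. Against estradiol, testosterone arrays were higher for 15 and lower for 3, against 17.3% of all probes called (7.76% higher, 9.57% lower). Cidea (1.75, 4.89e-05), Fitm1 (1.32, 0.0442) and Gpam (-1.15, 1.46e-05) led. The Fitm1 probe was detected on 23 of 55 arrays, so its size is that of a dim probe. The median muscle sum was 133669 intensity units with testosterone against 34652 with estradiol. The part of muscle in these differences was not tested.

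**Figure D3:**
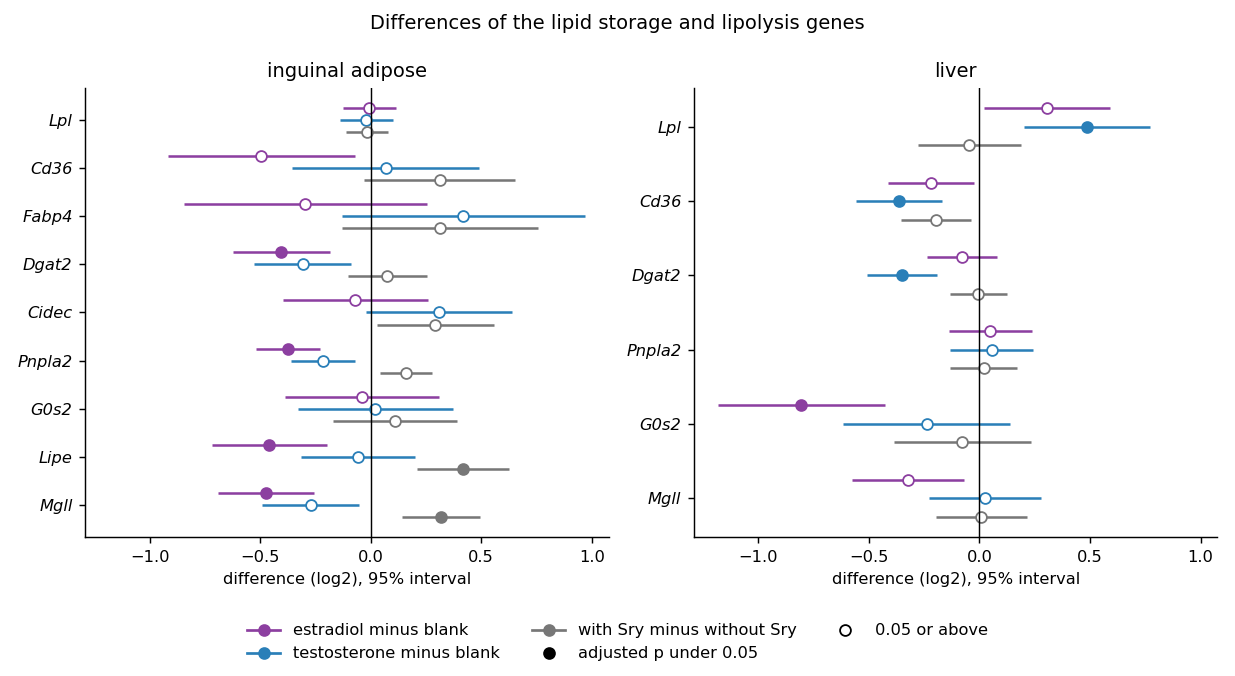
Log2 differences (points) with 95% intervals (lines) for estradiol minus blank, testosterone minus blank, and mice with Sry minus mice without, for 9 genes in adipose and 6 in liver. Filled points have a limma adjusted p under 0.05: in adipose these are the estradiol falls of Dgat2, Pnpla2, Lipe and Mgll and the higher Lipe and Mgll with Sry, and in liver the testosterone differences of Lpl, Cd36 and Dgat2 and the estradiol fall of G0s2. The liver Cd36 probe was detected on only 6 of 60 arrays.

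In liver, testosterone raised Lpl and lowered Dgat2, estradiol lowered G0s2, and Pnpla2 changed with neither by limma's adjusted p. Cd36 was also called lower with testosterone, but its probe was detected on only 6 of 60 arrays. Fabp4 and Cidec were detected on 0 of 60 liver arrays and Lipe on 1 of 60, so these 3 were not tested there. A probe without signal is no proof of a silent gene: the probe of Fabp1, the main fatty acid carrier of hepatocytes, was also detected on 0 of 60.

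Testosterone called 3 of 6 genes in liver, against 19.1% of all 11317 probes (8.17% higher, 10.9% lower). The 3 include Cd36, whose probe passed the filter almost only through blank arrays, where its level was highest. That call cannot be read as a response of Cd36. Lpl was detected on 60 of 60 liver arrays, at percentile 93.8 of the array by median intensity. It ran from 8.93 to 11.03 (median 9.73) on 20 blank arrays and from 9.58 to 11.19 (median 10.39) on 20 testosterone arrays. It was higher with testosterone (difference 0.48, SE 0.14, limma adjusted p = 0.011) and higher in 4 of 4 genotypes, from 0.27 in XX to 0.84 in XY-Sry. Median centring lowered it to 0.39 and ended the call (adjusted p = 0.088). Dgat2 ran from 13.16 to 13.83 (median 13.48) on blank and from 12.65 to 13.58 (median 13.10) on testosterone arrays. The difference was -0.35 (SE 0.08, limma adjusted p = 0.000835), negative in 4 of 4 genotypes and on 3 of 3 slides that held both arms. The Cd36 probe was detected on 5 of 20 blank arrays, 0 of 20 testosterone arrays and 1 of 20 estradiol arrays. Its mean was 5.18 ± 0.33 (SD, n = 20) with blank and 4.82 ± 0.26 (SD, n = 20) with testosterone capsules (limma adjusted p = 0.00477). Both lie under the lowest level of a detected probe. With that level in place of undetected values, the means were 5.56 with blank and 5.57 with testosterone capsules. The level then stands for all testosterone arrays and most blank arrays, so these means could hardly differ. Whether Cd36 falls cannot be told from this probe, and no fold is given.

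With estradiol 1 of 6 liver genes was called, against 6.82% of all probes (3.55% higher, 3.27% lower). G0s2, the lipase inhibitor, ran from 8.31 to 10.79 (median 9.52) on blank arrays and from 7.99 to 9.54 (median 8.59) on estradiol arrays. No estradiol array exceeded 9.54, while the blank median was 9.52. It was 1.75-fold lower (difference -0.81, SE 0.19, limma adjusted p = 0.00391), by 1.52 on the log2 scale in XX mice and by 0.47 to 0.73 in the other genotypes. Blank and estradiol arrays met on 2 slides, with -0.73 and -0.91 there. With slide as a fixed block the difference was -0.66 and no longer called (adjusted p = 0.0788). G0s2 was also higher with testosterone than with estradiol, by 0.57 (SE 0.19, limma adjusted p = 0.0261), a call lost with slide as a fixed block (0.49, 0.166).

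Mgll was not called with estradiol in liver, although its values were lower in both genotypes without Sry. Its difference was -0.32 (SE 0.13, limma adjusted p = 0.119), made of -0.76 in XX and -0.74 in XY- mice and 0.05 and 0.15 in XXSry and XY-Sry. The interaction of estradiol with gonad was 0.85 (adjusted p = 0.249). Among XY- E arrays Mgll spread from 7.21 to 10.09, and the array at 10.09 is replicate 5, whose Hsd3b5 level matched the testosterone arrays. Without that array the fall was called, at -0.39 (adjusted p = 0.0358). Testosterone arrays exceeded estradiol arrays by 0.35 (SE 0.13, adjusted p = 0.0469), and the other 2 probes were called too, at 0.48 and 0.38, but the call of the first was lost in 23 of 60 fits that left out 1 array. Dgat2 was lower with testosterone than with estradiol (-0.27, SE 0.08, limma adjusted p = 0.0107), which makes 3 of 6 genes called in that contrast, against 18.4% of all probes (7.78% higher, 10.6% lower). With median centring it was -0.17 (adjusted p = 0.315).

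**Figure D4:**
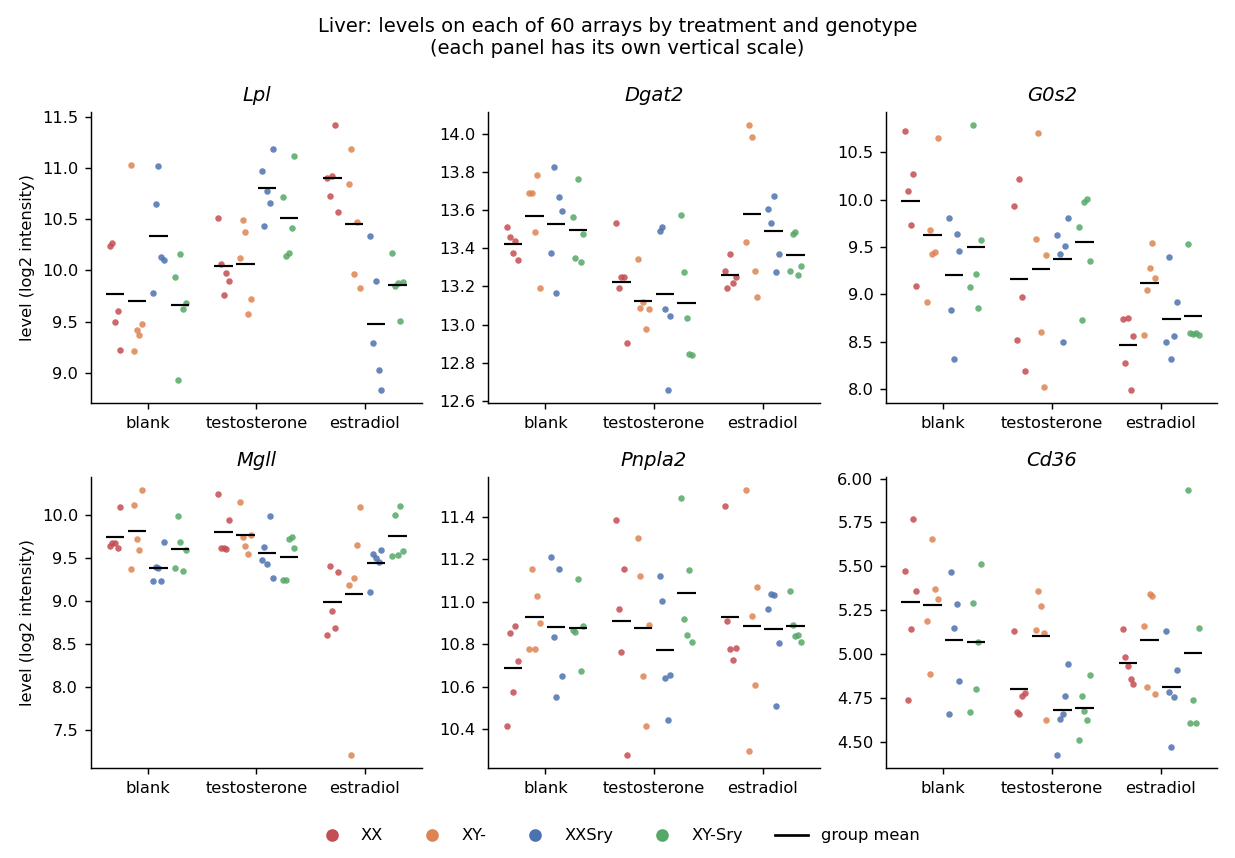
Log2 level of 6 genes in liver on each array (points), by treatment on the horizontal axis and genotype by colour, with group means as black bars. Under estradiol the Lpl points of XX and XY- arrays lie between 9.83 and 11.41 and those of XXSry and XY-Sry between 8.83 and 10.34, and the G0s2 points lie below 9.55.

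Lpl was the single gene of the set with a called interaction, in liver, between estradiol and gonad. There 0.0795% of all probes were called (0.0707% higher, 0.00884% lower). Without Sry, Lpl ran from 9.22 to 11.03 (median 9.49) on 10 blank arrays and from 9.83 to 11.41 (median 10.78) on 10 estradiol arrays. With Sry it ran from 8.93 to 11.02 (median 10.02) on blank and from 8.83 to 10.34 (median 9.86) on estradiol arrays. The estradiol difference was 1.14 in XX and 0.75 in XY- mice, against -0.86 in XXSry and 0.19 in XY-Sry. The effect with Sry minus that without was -1.28 (limma adjusted p = 0.0452). One XY- blank array, replicate 1 at 11.03, lay far above the other 4 of its group. Leaving out 1 array at a time moved the interaction between -1.45 and -1.19 and its adjusted p between 0.00186 and 0.101, with the call lost in 32 of 60 fits. Estradiol arrays of XXSry, the lowest group, also had the raised Hsd3b5 levels given above, and the part of this in the interaction was not tested. Without XXSry E replicate 5 the interaction was -1.20 and not called (0.0913). Without XY-Sry T replicate 5 and XY- E replicate 5 it was -1.36 (0.00843), without all 3 of these arrays -1.28 (0.0191), with slide as a fixed block -1.28 (0.0169), and with median centring -1.11 (0.219). Over all genotypes estradiol gave Lpl 0.30 (SE 0.14), which was not called (adjusted p = 0.208). By group means Lpl was highest in XX E (10.90 ± 0.32 SD, n = 5) and XXSry T (10.81 ± 0.29, n = 5), which differ by less than 1 SD, and lowest in XXSry E (9.48 ± 0.62, n = 5).

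Gonad type and sex chromosomes called none of the 6 genes in liver by limma's adjusted p, with 1 gene (Cd36) at an unadjusted p under 0.05 for gonad and none for sex chromosomes. Of all probes 3.4% were called for gonad (0.548% higher, 2.85% lower) and 0.186% for sex chromosomes (0.133% higher, 0.053% lower). Differences by gonad ran from -0.20 to 0.02 and by sex chromosomes from -0.15 to 0.18. No other interaction called a gene, with 0.124% of all probes called for testosterone by gonad (0.0972% higher, 0.0265% lower) and 0% for the other 3. Macrophage markers moved in liver as well: of 4 tested, 3 were lower with Sry, 3 higher with estradiol, 2 lower with testosterone and 4 lower with testosterone than with estradiol. With testosterone 1 of 4 endothelial markers (Cdh5), 1 of 4 stromal markers (Col3a1) and 1 of 8 hepatocyte markers were also lower, and no hepatocyte marker was called with estradiol. The part of these shifts in the liver results was not tested.

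The group means of Dgat2 in liver were most like those of Brp44l, a subunit of the mitochondrial pyruvate carrier (Pearson r = 0.957 over 12 groups), and those of Mgll most like Acot1, a cytosolic acyl-CoA thioesterase (r = 0.938). For Cd36 the nearest was Serpinb1a (r = 0.907), for G0s2 Hdgf (r = 0.906), for Pnpla2 Armc8 (r = 0.898) and for Lpl Wars (r = 0.893).

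Of the wider list, 49 genes were tested in liver. Testosterone called 17, with 9 higher and 8 lower, against 19.1% of all probes called (8.17% higher, 10.9% lower). The largest were Vldlr, a receptor that takes up lipoprotein remnants (-2.44, SE 0.16, limma adjusted p = 2.12e-18), Gpat3 (4933408F15 on the array; -0.84, SE 0.14, 5.89e-06) and Srebf1, a transcription factor of lipid synthesis (-0.74, SE 0.17, 0.000823). Among droplet proteins 5 of 9 rose and none fell: Plin5 by 0.72, Fitm1 by 0.68, Plin4 by 0.61, Hilpda by 0.29 and Bscl2 by 0.21, named after their values were seen. Abhd5, the activator of Pnpla2, rose by 0.43 (adjusted p = 9.04e-05) and was also named after its value was seen. Estradiol called 9, with 4 higher and 5 lower, against 6.82% of all probes, led by Vldlr (-1.19, 7.52e-07), Fitm1 (-0.85, 0.00204) and Fabp5 (0.73, 0.00243). Against estradiol, testosterone arrays were higher for 9 and lower for 5, against 18.4% of all probes called, led by Fitm1 (1.52, 4.48e-09), Vldlr (-1.24, 1.96e-08) and Fabp5 (-0.86, 5.34e-05). The Fabp5 probe was detected on only 19 of 60 liver arrays. With Sry 2 were lower, against 3.4% of all probes called: Gpat3 (-0.46, 0.0072) and Hilpda (-0.28, 0.0332).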

How the data were processed

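Illumina BeadChip profiles of 60 liver and 55 adipose arrays were analysed; the array version is not given in the sources used here. Per the file headers, the deposited tables hold for each probe and array an average bead intensity and a detection p-value, neither of them log-transformed, and lumi is named in the submitters' processing notes. The 115 columns of bead standard errors were not used.

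Each tissue was processed apart: normexp background correction from the detection p-values with an offset of 16, quantile normalisation, then log2 (R 4.3.3, limma 3.58.1). Probes with a detection p under 0.01 on at least 5 liver or 3 adipose arrays, the smallest group, were tested: 11317 and 14636. limma fitted 12 group means, and 10 comparisons per tissue were each adjusted by Benjamini-Hochberg over all tested probes. The number of arrays limits the precision. A gene with several probes was given by the one detected on most arrays, then the brightest. Named genes are the 10 members, up to 3 called genes of the wider list with the largest difference in each comparison, and the probes most correlated with each member. The members and lists were chosen with earlier results of these data known. The procedure was tested on simulated data. The alternatives changed background correction, offset, scaling, filter, slide, weights, probes, samples, covariates and the label of 1 array. Replicate numbers follow accession order and pair no samples.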

Additional observations from a re-analysis of the deposited data

Results flagged for a closer look

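In 7 of 171 groups of arrays, 1 array stood apart from the rest of its group by Dixon's criterion, which chance alone meets in about 1 of 20 groups. In liver these were Lpl on XY- B replicate 1 at 11.03, with the other 4 arrays between 9.22 and 9.47, Cd36 on XX T replicate 1 at 5.13 (others 4.66 to 4.78), Pnpla2 on XX E replicate 1 at 11.45 (10.72 to 10.91), G0s2 on XY-Sry E replicate 1 at 9.54 (8.57 to 8.59), Mgll on XX B replicate 5 at 10.09 (9.61 to 9.67) and Mgll on XXSry E replicate 1 at 9.1 (9.45 to 9.58). In adipose it was Mgll on XXSry E replicate 4 at 12.55, against 12.77 to 12.78 on the other arrays of the group. The difference between gonad types in the estradiol effect on liver Lpl, -1.28 by the interaction term (limma adjusted p = 0.0452), was the single tested difference of that kind to pass among the genes of the set.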

How the results depend on the processing

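Of 16 called differences, 0 turned sign in any alternative with the same probe. In liver, interactions called 0 genes without background correction, with median centring and without the filter; estradiol called 2 with median centring, 0 with slide as a fixed block and 2 without the 2 arrays that go against their labels, with XXSry E replicate 5 kept or also left out, fits added after seeing the data; and testosterone against estradiol called 1 with median centring, no filter, slide as a fixed or random block, or array weights. In adipose, testosterone called 1 gene without background correction and 3 with other-tissue covariates. Testosterone against estradiol called 1 without the filter, 4 with slide as a fixed or random block, 1 with other-tissue covariates and 0 with the adipocyte covariate. Interactions called 1 with array weights. Gonad called 0 with either covariate set, and estradiol called 1 with the adipocyte covariate. The cause was not tested.

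Estradiol values in adipose that turned sign were those of Mgll by probe ILMN_2592925 (0.1521), Lpl with other-tissue covariates (0.016) and, with the adipocyte covariate, Cd36 (0.0653), Fabp4 (0.222), Cidec (0.2192) and G0s2 (0.3426); none was called. Leaving out 1 array at a time, the called genes numbered 1 to 2 for liver estradiol, 1 to 3 for liver testosterone against estradiol, 0 to 1 for liver interactions, 0 to 1 for adipose testosterone and 1 to 3 for adipose testosterone against estradiol. Adipose estradiol differences ran from -0.0346 to 0.0209 for Lpl and from -0.1165 to 0.0316 for G0s2. Liver testosterone against estradiol called 1 gene without XY- T replicate 2. The 43 differences given only as ranges held 0 calls, and 28 of them turned sign in at least 1 setting. Median centring put the median of all liver probes at -0.18 for estradiol and 0.11 for testosterone against estradiol. Under quantile normalisation these medians were -0.02 and 0.03. No paired analysis was possible because the labels give no replicate numbers.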
